A study of Botryllus schlosseri with 78 samples.

Results

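Ampullae of 2 colonies of the colonial tunicate Botryllus schlosseri, SMGO and SMH, were compared over all transcripts of the deposited expression table. The members were chosen by their sample titles alone, and they are 7 of the 77 libraries that have values: 4 of SMGO ampullae and 3 of SMH ampullae. The SMGO libraries comprise a pair that the labels call technical and replicates 2 and 3; the pair was averaged, so each colony counts as 3 units. The labels give SMGO and SMH as names only, with no Fuhc genotype, age, stage or relation between the colonies, and the replicates are not said to come from separate colonies, so the p-values measure a spread between libraries that may be technical. Whole bodies labelled with the same 2 names, 3 libraries each, are set beside the ampullae. So are ampullae of 3 lines that the labels call SB825-FX, SB825-FEA and SB825-FDA, 3 libraries each.

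In this animal a shared tunic houses many small bodies joined by vessels, and the ampullae are the swollen tips of those vessels at the colony margin. Where 2 colonies meet, ampullae of each touch, and the vessels either fuse or are sealed off in a rejection. The outcome depends on alleles of the Fuhc locus, which encodes among others BHF (Botryllus histocompatibility factor), a secreted and a membrane-bound FuHc protein, and HSP40L. Fester and uncle fester are receptors of the ampulla and blood with a part in that decision, and fester varies strongly between individuals. Of the transcripts measured, 45 are called FF and a number, which is taken to mean the fester family. A further 69 are called FcoR, a group found by sequence searches that began from fester, 19 encode signalling proteins of the kind that act below immune receptors, and 4 come from the Fuhc locus. Near-identical members of a receptor family can share reads, so a value for 1 member is uncertain by as much as the counting split such reads.

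Each deposited value is read as a TMM-scaled TPM, that is, an abundance per length on a scale made comparable between libraries, and a fold is a ratio of such values. The 4 SMGO libraries summed to between 1102580 and 1263430 and the 3 SMH libraries to between 1011970 and 1167690 over these transcripts. A value is thus close to a share of this set, and a rise in some transcripts lowers others. The lowest value of at least 1 was 69.5 to 86.8 in SMGO libraries and 28.1 to 51.3 in SMH libraries, the nearest thing to a detection limit that these values show, and read totals are unknown. The labels name the ampulla cells as vasculature, but none of 16 marker names for vessel epithelium, blood cells, germline and muscle is among the transcripts, so that label could not be checked. In bulk tissue, fewer cells of a type and less RNA per cell cannot be told apart. All 23 signalling and Fuhc transcripts had values in all 7 libraries.

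The receptor transcripts that a colony's ampullae carried differed between SMGO and SMH, while the listed signalling proteins did not pass the test in either direction. Over all lists, 33 transcripts were at 0 in all 7 libraries, 19 others had a value in some library but too few to be tested, with a highest value of 1212, and 85 were tested. By limma, 34 of the 85 passed at an adjusted p under 0.05 (40.0% of those tested). Of these, 14 were higher in SMGO (16.5%) and 20 were lower (23.5%). All 34 were receptors: 14 of 20 FF transcripts tested, 20 of 42 FcoR transcripts, 0 of 19 signalling proteins and 0 of 4 Fuhc products. The median size of the log2 difference, in either direction, was 2.27 in FF, 2.56 in FcoR, 0.12 in the signalling proteins and 1.31 over all 85. For a receptor at 0 in some libraries, that size depends on the 1 added before taking log2. All 19 signalling proteins had values in every library, so these medians are not like for like. A transcript present in 1 colony alone had to differ to be tested: 5 were tested through SMGO alone and 5 through SMH alone, and 51 had values in all 7 libraries. All of those tested through 1 colony alone are receptors and all passed, so they raise the counts of receptor calls given above.

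**Figure D1:**
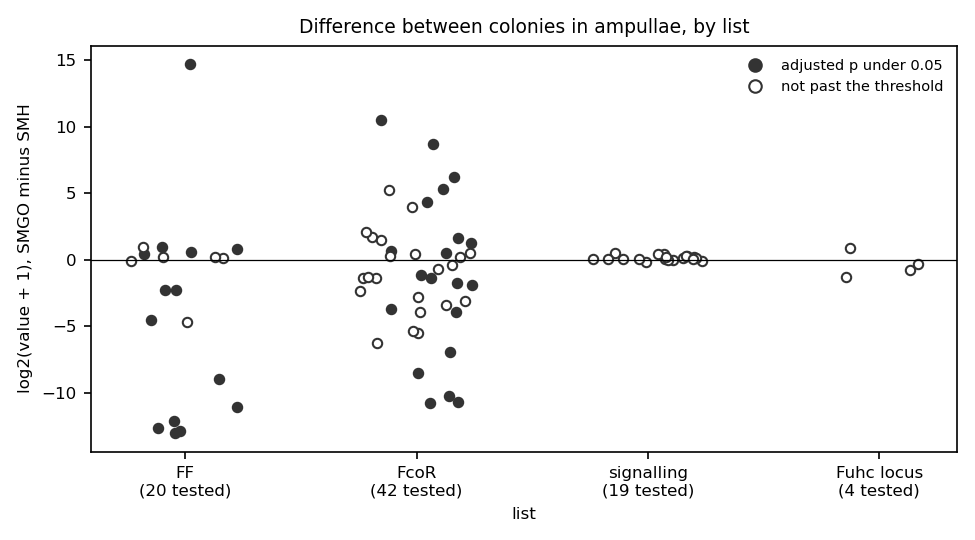
Log2 difference of each tested transcript between ampullae of SMGO and SMH (vertical axis, log2(value + 1), SMGO minus SMH), by list (horizontal axis, points spread sideways for legibility). Filled points have a limma adjusted p under 0.05; FF and FcoR points reach from -13.02 to 14.73, and the 19 signalling points lie between -0.12 and 0.49.

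The signed median was -1.19 over the 20 FF and -1.23 over the 42 FcoR transcripts, against 0.04 over all 85. Between libraries, 37 of the 85 tested transcripts did not overlap (43.5%), that is, every value of 1 colony lay above every value of the other. SMGO was higher in 16 of them and SMH in 21. Of the 34 that passed the test, 30 did not overlap, and the 4 with overlapping libraries were FcoR8, FcoR9, FcoR58 and FcoR60. FcoR12, FcoR38, FcoR45, FcoR63, FcoR73, PI3K and Ras did not overlap either, without passing.

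FF14 was the FF transcript of SMGO ampullae alone. Its deposited values were 26036 and 25436 in the technical SMGO libraries and 29842 and 26137 in SMGO replicates 2 and 3, against 0 in all 3 SMH libraries. The SMGO libraries lie close together and none approaches SMH, and FF14 made up 12.1% ± 0.421 of the FF total in SMGO (SD, n = 3). On the log2(value + 1) scale the difference was 14.73 ± 0.45 (SE; limma adjusted p = 1.23e-05), a size set by the pseudocount, since a group at 0 gives no fold.

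FF9, FF19 and FF45 were the mirror image, with values in every SMH library and 0 in every SMGO library. FF9 stood at 0 in the 4 SMGO libraries and at 9969, 7334 and 7898 in SMH replicates 1 to 3 (log2 difference -13.02 ± 0.53, SE; limma adjusted p = 1.93e-05). FF19 stood at 0 in SMGO and at 6854, 6539 and 8497 in SMH, and FF45 at 0 in SMGO and at 6895, 5543 and 6489 in SMH, both also at a limma adjusted p of 1.93e-05. In all 3, the SMH libraries lay within a narrow range.

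FF29 and FF4 were as strong in SMH but not at 0 in every SMGO library. FF29 had 0 and 307 in the technical SMGO libraries and 0 in SMGO replicates 2 and 3, against 10308, 11269.5 and 12895 in SMH (limma adjusted p = 0.000726). FF4 had 435 and 559.8 in the technical SMGO libraries and 0 in SMGO replicates 2 and 3, against 15543, 18498 and 16361 in SMH (limma adjusted p = 0.0183). The second technical library carried a low value of both, and the first of FF4 alone, while SMGO replicates 2 and 3 were at 0 and no SMGO value came near SMH. FF16 was alike, at 0 in 3 SMGO libraries and 152 in SMGO replicate 3, against 1608, 2847 and 4272 in SMH (limma adjusted p = 0.0194). The calls of FF4 and FF16 were each lost in 5 of the 6 fits that left out 1 unit: FF4 kept its call without the technical pair and FF16 without SMGO replicate 3. Over all alternatives their adjusted p reached 0.0657 and 0.0685.

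Other FF transcripts were present in both colonies at unequal levels. FF44 had 418 and 458 in the technical SMGO libraries and 1131 and 596 in SMGO replicates 2 and 3, against 13853, 16280.1 and 16865 in SMH, a level 21.7-fold higher in SMH (log2 difference -4.55 ± 0.37, SE; limma adjusted p = 0.000387). FF15 averaged 1974 ± 442 in SMGO and 9204 ± 628 in SMH (SD, n = 3 each), 4.66-fold higher in SMH. FF7 averaged 735 ± 86.8 in SMGO and 3609 ± 789.6 in SMH, 4.91-fold higher in SMH. Both passed (limma adjusted p = 0.000532 and 0.000726) with no overlap of libraries, and both are named after their values were seen.

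The 4 other FF transcripts that rose in SMGO had the highest means of the family over both colonies, and their differences were smaller. FF10 had 64078 and 69794 in the technical SMGO libraries and 54754 and 54445 in SMGO replicates 2 and 3, against 36306, 43918 and 36577 in SMH, 1.51-fold higher in SMGO (log2 difference 0.59 ± 0.13, SE; limma adjusted p = 0.0178). FF17 averaged 37968 ± 6998 in SMGO and 19372 ± 2772 in SMH, 1.96-fold higher in SMGO (limma adjusted p = 0.0105). FF2 averaged 27998 ± 840 in SMGO and 16223 ± 1073 in SMH, 1.73-fold higher (limma adjusted p = 0.0011). FF3 averaged 30771 ± 3088 in SMGO and 22390.1 ± 1356 in SMH, 1.37-fold higher (limma adjusted p = 0.0202). The call of FF3 was lost under 8 of 18 alternatives, among them scaling the libraries to the same sum and leaving out SMGO replicate 3 or any SMH replicate. In 7 of these limma's adjusted p lay between 0.0535 and 0.129, and in a fit of all 5 ampulla lines and colonies it was 0.837. That of FF10 was lost under 5, among them leaving out SMH replicate 1 or 3, with an adjusted p of 0.0509 to 0.0588 in 4 of them and 0.817 in the fit of all 5 lines and colonies. FF13, the next by the mean over both colonies, averaged 16393 ± 1735 in SMGO and 13712 ± 606 in SMH and did not pass (limma adjusted p = 0.142).

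**Figure D2:**
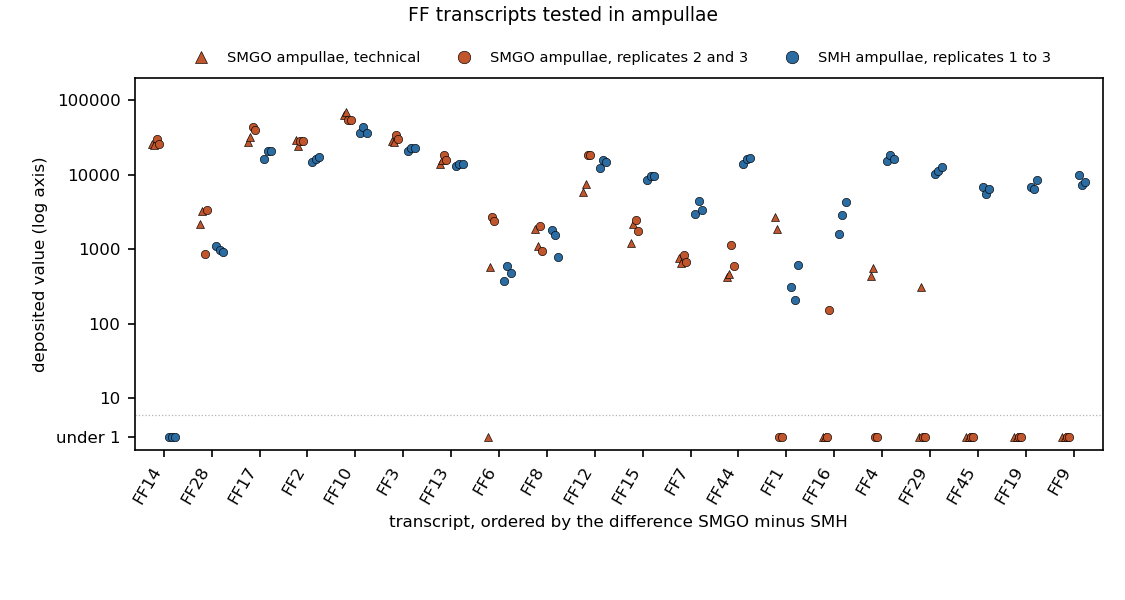
Deposited value (vertical log axis) of the 20 FF transcripts tested in ampullae, in each SMGO library (left of each name; triangles are the technical pair) and each SMH library (right), with values under 1 drawn at the bottom. FF14 has values in the SMGO libraries alone, and FF9, FF19 and FF45 in the SMH libraries alone.

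Among the 6 FF transcripts that did not pass, 3 had a technical pair that stood apart from the other SMGO libraries. FF12 had 5884 and 7506 in the technical pair and 18371 and 18595 in SMGO replicates 2 and 3, on either side of the 12245, 15726 and 14988 of SMH. FF1 had 2677 and 1848 in the technical pair and values under 1 in SMGO replicates 2 and 3, against 306, 206 and 608 in SMH. FF6 had 0 and 581 in the technical pair and 2731 and 2404 in SMGO replicates 2 and 3, against 376, 587 and 478 in SMH. Without the technical pair, FF1 and FF6 passed. FF8 and FF28 had values in all 7 libraries and overlapped between the colonies. For FF28 the technical pair had 2182 and 3295 and SMGO replicates 2 and 3 had 860 and 3382, against 1111, 964 and 923 in SMH. Without SMGO replicate 2, FF28 passed.

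The FF totals were close. Summed over the family, values came to 224339 ± 13559 in SMGO and 210084 ± 14204 in SMH (SD, n = 3 each), a ratio of 1.07 (exact two-sided permutation p = 0.4; the smallest that 20 assignments allow is 0.1). The makeup of the total differed more than its size. The 5 FF transcripts higher in SMGO held 81.5% ± 2.41 of the FF total in SMGO and 46.1% ± 1.21 in SMH, and the 9 lower ones held 1.64% ± 0.225 in SMGO and 38.9% ± 1.33 in SMH. These shares describe transcripts chosen by the same contrast and carry no test. The 5 most abundant FF transcripts of a colony held 81.4% of its FF total in SMGO and 54.1% in SMH, and FF10 alone 26.3% ± 4.69 in SMGO and 18.5% ± 1.51 in SMH. The number of FF transcripts with a value of at least 1 was 18 and 19 in the technical SMGO libraries, 17 and 14 in SMGO replicates 2 and 3, and 20 in each SMH library. The detection limit was lower in SMH, as given above, and its part in these numbers was not tested; with detection set at 200 the averages were 14.8 in SMGO and 19.7 in SMH.

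Of the 45 FF transcripts, 11 had values in all 7 libraries, 1 in SMGO alone, 3 in SMH alone, 13 in some libraries of 1 or both colonies, and 17 in none.

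In the FcoR group, FcoR64 and FcoR40 had values in every SMGO library and 0 in every SMH library. FcoR64 had 1858 and 1173 in the technical SMGO libraries and 1109.6 and 1816 in SMGO replicates 2 and 3, against 0 in SMH (log2 difference 10.49 ± 0.61, SE; limma adjusted p = 8.78e-05). FcoR40 had 1911 and 499.5 in the technical pair and 376 and 206 in SMGO replicates 2 and 3, against 0 in SMH (limma adjusted p = 0.000597). The 4 SMGO values of FcoR64 lie near each other, whereas those of FcoR40 spread widely, within the technical pair as well.

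FcoR69 and FcoR47 had values in every SMH library and 0 in every SMGO library. FcoR69 stood at 0 in the 4 SMGO libraries, against 1566, 2821 and 962 in SMH (log2 difference -10.66 ± 0.70, SE; limma adjusted p = 0.000136). FcoR47 stood at 0 in SMGO, against 425, 165 and 619.6 in SMH (limma adjusted p = 0.00058). FcoR47 is the lower of the pair in SMH, and its 165 is to be read beside the lowest values of 69.5 to 86.8 in SMGO libraries. FcoR22_30 and FcoR23 came close to this pattern. FcoR22_30 had 72.1 in SMGO replicate 2 and 0 in the other SMGO libraries, against 5001, 5165 and 4619 in SMH (limma adjusted p = 0.00685). FcoR23 had 133 in the second technical library and 0 in the other SMGO libraries, against 1898, 5494 and 5967 in SMH (limma adjusted p = 0.000991).

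FcoR44 and FcoR18 were the FcoR transcripts with values in all 7 libraries with the lowest adjusted p among those higher in SMGO. FcoR44 had 5566 and 5238 in the technical SMGO libraries and 5794 and 3978 in SMGO replicates 2 and 3, against 419.6, 229.8 and 148 in SMH, 19.0-fold higher in SMGO (log2 difference 4.36 ± 0.44, SE; limma adjusted p = 0.000716). FcoR18 had 14324 and 14019.5 in the technical pair and 16898 and 22079.8 in SMGO replicates 2 and 3, against 7374, 6845 and 7929 in SMH, 2.40-fold higher in SMGO (log2 difference 1.24 ± 0.19, SE; limma adjusted p = 0.00318). FcoR10 averaged 11889.8 ± 1214 in SMGO and 7589.9 ± 1049 in SMH, 1.57-fold higher (limma adjusted p = 0.0178). FcoR1 averaged 10770 ± 785 in SMGO and 7621 ± 957 in SMH, 1.41-fold higher (limma adjusted p = 0.0308). FcoR70 averaged 8118 ± 1852 in SMGO and 2786 ± 1456 in SMH, 2.91-fold higher (limma adjusted p = 0.0388), and its technical pair differed as widely, at 5088 and 13613. FcoR1 and FcoR70 both lost their call when the libraries were scaled to the same sum, FcoR1 also without SMGO replicate 2 or 3 or any SMH replicate, and FcoR70 also without any SMGO unit or SMH replicate 2. FcoR10 lost its call without SMH replicate 1 or 3. Over the alternatives the adjusted p reached 0.104 for FcoR1 (log2 values centred on the signalling and Fuhc transcripts), and 0.7 for FcoR70 and 0.0675 for FcoR10 in the fit of all 5 lines and colonies.

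On the SMH side, FcoR46 averaged 233 ± 44.4 in SMGO and 3329 ± 1309.8 in SMH, 14.3-fold higher in SMH (limma adjusted p = 0.000707). FcoR2 averaged 196 ± 48.8 in SMGO and 2640 ± 1194 in SMH, 13.5-fold higher in SMH (limma adjusted p = 0.00185). FcoR4 averaged 1037 ± 229 in SMGO and 3635 ± 40.6 in SMH, 3.51-fold higher in SMH (limma adjusted p = 0.00114). These 3 are named after their values were seen, and in none did a library of SMGO reach SMH. FcoR41 had 1121 and 3466 in the technical pair and 3145 and 3081 in SMGO replicates 2 and 3, against 9905, 8438 and 8821 in SMH (limma adjusted p = 0.00148). FcoR21 averaged 1328 ± 428 in SMGO and 3363 ± 840 in SMH, 2.53-fold higher in SMH (limma adjusted p = 0.0194). Its call was lost without the technical pair, SMGO replicate 2 or SMH replicate 2 or 3. FcoR9, which lost its call under 11 of 18 alternatives, averaged 491 ± 147 in SMGO and 1055 ± 229 in SMH.

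**Figure D3:**
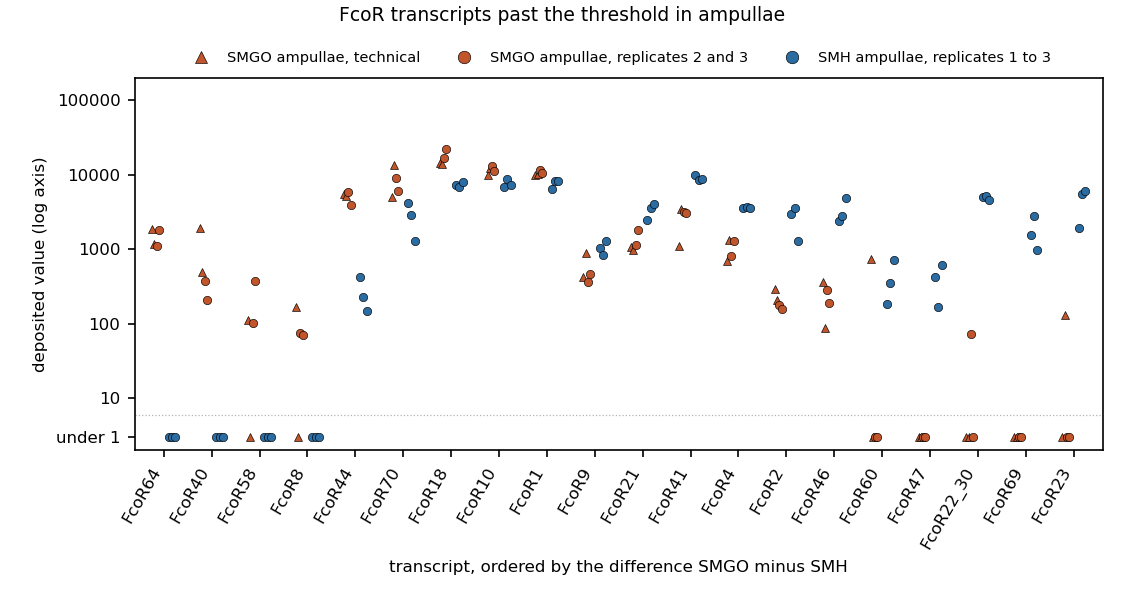
Deposited value (vertical log axis) of the 20 FcoR transcripts past the threshold in ampullae, in each SMGO library (left of each name; triangles are the technical pair) and each SMH library (right), with values under 1 drawn at the bottom. FcoR64 and FcoR40 have values in the SMGO libraries alone, FcoR47 and FcoR69 in the SMH libraries alone, and FcoR8, FcoR58 and FcoR60 each have a technical library apart from the rest of SMGO.

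FcoR8, FcoR58 and FcoR60 passed on low values, and the libraries of the technical pair disagreed in each. FcoR8 had 169 and 0 in the technical pair and 75.7 and 69.5 in SMGO replicates 2 and 3, against 0 in SMH. FcoR58 had 113 and 0 in the pair and 102 and 374 in SMGO replicates 2 and 3, against 0 in SMH. FcoR60 had 745 and 0 in the pair and 0 in SMGO replicates 2 and 3, against 186, 347 and 709 in SMH. In each, 1 technical library had the transcript and the other did not. All 3 passed without the pair, and with the pair averaged on the scale of the values FcoR8 and FcoR58 passed and FcoR60 did not. The calls were lost, or could not be tested, under 3, 7 and 9 of the 18 alternatives for FcoR8, FcoR58 and FcoR60, in that order.

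FcoR72, the most abundant FcoR transcript, had 19940.1 and 23081 in the technical pair and 33856 and 25411 in SMGO replicates 2 and 3, against 18303, 19682 and 33019 in SMH, so the colonies overlapped (limma adjusted p = 0.645). FcoR63, also among the 5 highest, averaged 5812 ± 1185 in SMGO and 7455 ± 447 in SMH (limma adjusted p = 0.181). Some low FcoR transcripts were separated without passing. FcoR45 had 1436 and 459 in the technical pair and 756 and 1418 in SMGO replicates 2 and 3, against 0, 97.4 and 169 in SMH (limma adjusted p = 0.102). FcoR38 had 412 and 852 in the technical pair and 525 and 469 in SMGO replicates 2 and 3, against 42.6, 289.6 and 151 in SMH (limma adjusted p = 0.0971). FcoR12 had 399 and 328 in the technical pair and 0 and 164 in SMGO replicates 2 and 3, against 3732, 2354 and 3128 in SMH (limma adjusted p = 0.0902). The first and last of these passed with a pseudocount of 10 or 100 in place of 1, and FcoR38 passed with 100 but not with 10. The FcoR total was 107724 ± 7293 in SMGO and 104982 ± 6327 in SMH (SD, n = 3 each), a ratio of 1.03 (exact two-sided permutation p = 0.8). FcoR transcripts with a value of at least 1 numbered 34 in both technical libraries and 32 and 35 in SMGO replicates 2 and 3, and 35, 39 and 35 in SMH. Of the 69, 17 had values in all 7 libraries, 2 in SMGO alone, 2 in SMH alone, 32 in some libraries and 16 in none.

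The receptor sets can be compared as wholes by the Jaccard index, the number of receptors 2 libraries share divided by the number that either has. It averaged 0.669 over the 6 pairs of SMGO ampulla libraries, 0.828 over the 3 SMH pairs and 0.573 over the 12 pairs of 1 SMGO and 1 SMH library, and the technical pair had 0.694. The highest index between colonies, 0.636, was above the lowest within SMGO, 0.619. The technical libraries differed in the presence of 19 transcripts, none above 933, and the other SMGO pairs in 15 to 24. Their log2 values correlated at r = 0.809, against 0.762 to 0.841 for the other SMGO pairs. On these measures the technical pair was within the range of the others. For transcripts of at least 1000 in both, its median difference was 0.12 on the log2 scale, against 0.19 to 0.29 for the other SMGO pairs.

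The signalling proteins are kinases, phosphatases, adaptors, GTPases and transcription factors that pass on signals from membrane receptors. Their log2 differences ran from -0.12 to 0.49, with standard errors of 0.10 to 0.33, 15 of 19 were positive (8 of 19 with libraries scaled to the same sum), and the lowest limma adjusted p was 0.102. At an unadjusted p under 0.05, 1 of 19 passed, against 40 of all 85 tested transcripts; it was Ras, a small GTPase above the Raf, MEK and ERK kinases, named after its values were seen. Ras had 146547 and 147754 in the technical pair and 162654 and 145426 in SMGO replicates 2 and 3, against 128525, 135949 and 118579 in SMH, and its libraries did not overlap. NF-kB, a transcription factor with the highest difference of the list, averaged 42024 ± 5218 in SMGO and 31487 ± 11721 in SMH, with SMH replicate 1 at 17970 and the others at 38831 and 37660. SYK, a kinase that binds the tails of activating immune receptors, averaged 8118 ± 1989 in SMGO and 6785 ± 963 in SMH (limma adjusted p = 0.494). SHP2, a phosphatase recruited by receptor tails, averaged 9313 in SMGO and 10064 in SMH (limma adjusted p = 0.645). The signalling total was 718913 ± 61060 in SMGO and 657589 ± 33530 in SMH (exact two-sided permutation p = 0.3).

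The 4 products of the Fuhc locus did not pass the test, 0 of them at an unadjusted p under 0.05 in limma (40 of all 85 tested), and 3 of them varied widely within a colony. BHF, whose alleles predict fusion, had 117689 and 128330 in the technical pair and 98587 and 80394 in SMGO replicates 2 and 3, against 63428, 98861 and 22282 in SMH (log2 difference 0.93 ± 0.57, SE; limma adjusted p = 0.27). The SMH libraries alone spanned more than the gap between the colony means. FuHc-Sec, the secreted product, had 27196 and 29744 in the technical pair and 16605 and 34007 in SMGO replicates 2 and 3, against 31705, 64189 and 36152 in SMH (limma adjusted p = 0.203). FuHc-Tm, the membrane product, was low in ampullae, with 318 and 349.6 in the technical pair and 95.3 and 87.4 in SMGO replicates 2 and 3, against 557, 184 and 375 in SMH (limma adjusted p = 0.271). HSP40L, a chaperone-like product of the locus, averaged 2928 ± 603 in SMGO and 3653 ± 606 in SMH (limma adjusted p = 0.318). The Fuhc total was 130124 ± 21463 in SMGO and 109564 ± 53427 in SMH (exact two-sided permutation p = 0.5).

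Whole bodies labelled with the same colony names show which of these differences went beyond the ampullae. One whole-body library stood apart from the others of its colony: SMH replicate 3, so numbered in its title but with another number in its description. Whether it has the same origin as SMH replicates 1 and 2 is not given in the sources used here. Nor is it given which of the 3 share an origin with the SMH ampullae. Of the transcripts with values in all 3 SMH ampulla libraries, 11 were at 0 in SMH whole-body replicates 1 and 2, and all 11 had values in replicate 3. They are 5 FF (FF4, FF7, FF9, FF29 and FF45) and 6 FcoR transcripts (FcoR2, FcoR12, FcoR22_30, FcoR23, FcoR48 and FcoR75). FF4 stood at 7166 in that library, FF29 at 20654 and FF9 at 4616. For SMGO, 0 transcripts of all ampulla libraries were absent from all whole-body libraries. The Jaccard index between SMH ampullae and SMH whole bodies averaged 0.626 for replicates 1 and 2 and 0.805 for replicate 3, and between SMGO ampullae and SMGO whole bodies 0.673. By this index replicate 3 was the SMH whole-body library nearest to the SMH ampullae, whose own pairs averaged 0.828. Results on whole bodies are therefore given with and without SMH replicate 3, and neither version is taken as the sounder one.

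**Figure D4:**
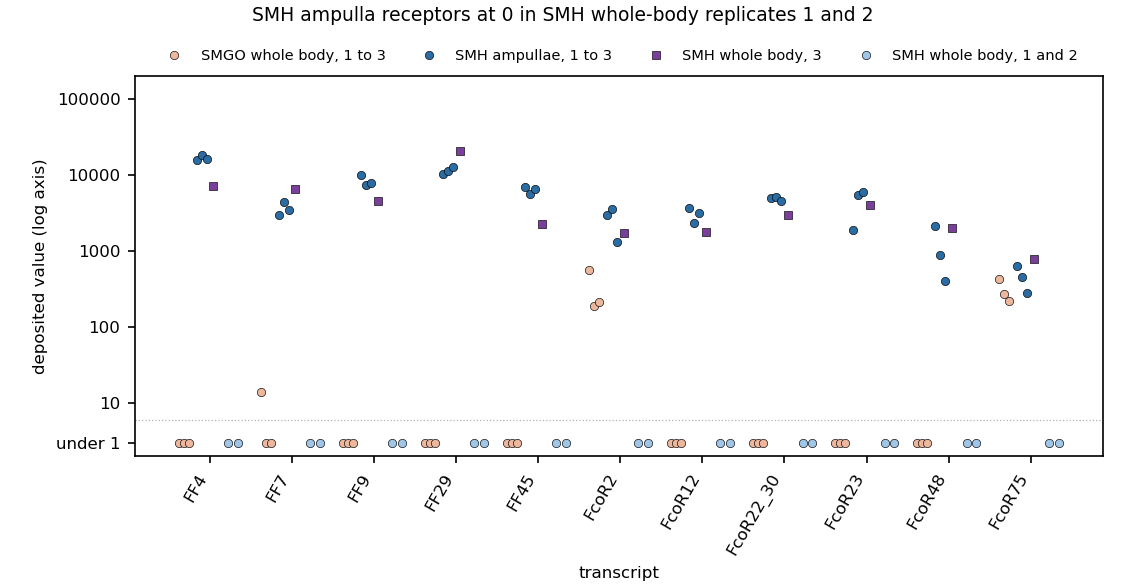
Deposited value (vertical log axis) of the 11 transcripts present in all SMH ampulla libraries and at 0 in SMH whole-body replicates 1 and 2, in SMGO whole bodies, SMH ampullae, SMH whole-body replicate 3 (squares) and SMH whole-body replicates 1 and 2, in that order from left to right; values under 1 are drawn at the bottom. Whole-body replicate 3 of SMH has a value for each of the 11, and SMGO whole bodies have values for FF7 in 1 library and for FcoR2 and FcoR75 in all 3.

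In whole bodies, limma called 10 of 79 transcripts tested (12.7%), 6 higher in SMGO (7.59%) and 4 lower (5.06%). Without SMH replicate 3 it called 17 (21.5%), 10 higher (12.7%) and 7 lower (8.86%). Of the 34 ampulla calls, 25 could be tested in whole bodies, 19 with the same sign and 6 with the opposite one, and 6 passed in both tissues with the same sign: FF14, FF15, FF16, FF44, FcoR46 and FcoR64. Without SMH replicate 3, 17 had the same sign and 8 the opposite, and 8 passed in both with the same sign, FF10 and FcoR18 joining. FcoR2 then passed in both with opposite signs, at -3.66 in ampullae and 8.14 in whole bodies on the log2 scale. It was at 0 in both SMH whole-body libraries that remain, so the size of 8.14 depends on the pseudocount. With all libraries its whole-body difference was 4.56 ± 3.03 (SE; limma adjusted p = 0.339). Over the 74 transcripts tested in both tissues, the differences correlated at r = 0.622 (rho = 0.371), or at r = 0.536 (rho = 0.244) without SMH replicate 3. These coefficients are across transcripts of the same libraries and are given as a description.

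FF14 had 28541, 26213 and 24143 in SMGO whole bodies, against 0 in all 3 SMH whole bodies (limma adjusted p = 1.76e-06), levels near those of the ampullae. FcoR64 had 846, 973 and 1046 in SMGO whole bodies and 0 in SMH whole bodies (limma adjusted p = 1.2e-05). FF44 had 533, 303 and 323 in SMGO whole bodies, against 9086, 9377 and 10531 in SMH whole bodies (limma adjusted p = 0.0001). FF16 had 0, 0 and 11.6 in SMGO whole bodies, against 1955, 3447 and 1744 in SMH whole bodies (limma adjusted p = 0.0013). FF15 had 1584, 1206 and 1258 in SMGO whole bodies, against 8314, 11354 and 8492 in SMH whole bodies (limma adjusted p = 0.000248). FcoR46 had 199, 183 and 97.1 in SMGO whole bodies, against 3092, 3969 and 1870.5 in SMH whole bodies (limma adjusted p = 0.00127). These 6 were picked by passing the test in the same whole-body libraries, so the separation of their values adds no support. In them, SMH replicate 3 lay on the side of the other SMH libraries.

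Among the 4 other whole-body calls, FcoR74 had 4332, 3037 and 2750.1 in SMGO whole bodies, against 7.41, 9.11 and 37.3 in SMH whole bodies (limma adjusted p = 0.000454). In ampullae it was low in both colonies, with 72.9 and 159.8 in the technical pair and 130.4 and 0 in SMGO replicates 2 and 3, against 0, 152 and 51.3 in SMH. FcoR74 did not pass the test of a different colony difference between the tissues (-7.52 ± 3.06 on the log2 scale, SE, limma adjusted p = 0.251). With a pseudocount of 100 it passed. SYK averaged 10219.6 in SMGO whole bodies and 5457 in SMH whole bodies (limma adjusted p = 0.00832), and its test of a different colony difference between the tissues did not pass (limma adjusted p = 0.251). FcoR24 had 1084 and 1212 in the technical pair and 1016 and 0 in SMGO replicates 2 and 3, against 0 in all SMH ampullae, 1 unit short of the minimum for a test. FcoR53 had a value in 1 SMH ampulla library, 169, and in no SMGO ampulla library.

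**Figure D5:**
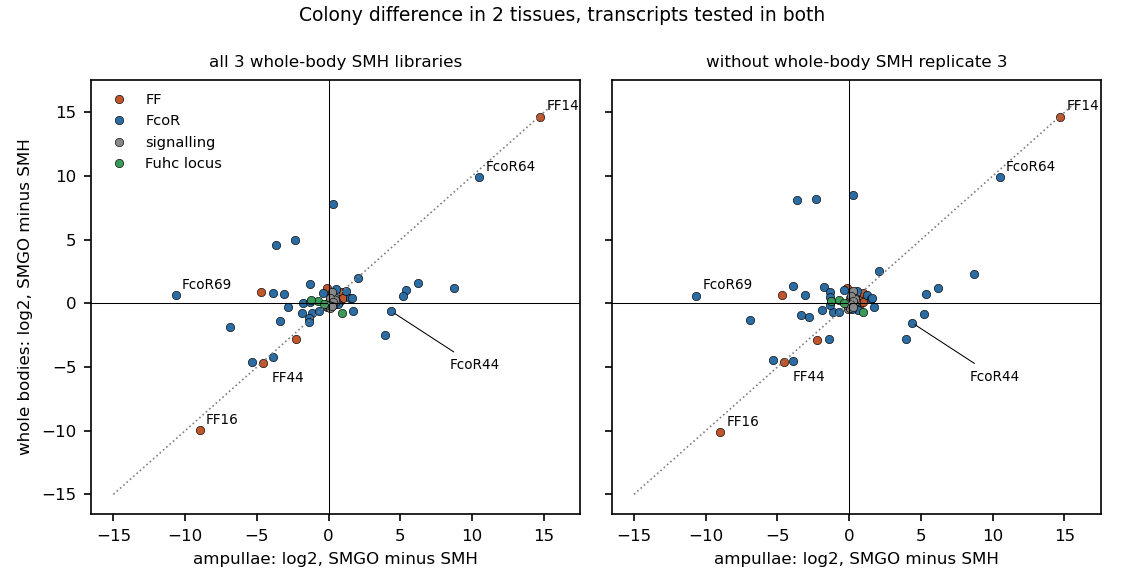
Log2 difference, SMGO minus SMH, of the 74 transcripts tested in both tissues: ampullae on the horizontal axis and whole bodies on the vertical axis, with all libraries (left) and without SMH whole-body replicate 3 (right); the dotted line marks equal differences. FF14, FcoR64, FF44 and FF16 lie near the line, and FcoR69 and FcoR44 away from it.

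FcoR69 was the transcript whose colony difference differed between the tissues. It was at 0 in the 4 SMGO ampulla libraries and had 1566, 2821 and 962 in SMH ampullae, but 1179, 563 and 1171 in SMGO whole bodies, against 1047, 349.8 and 521 in SMH whole bodies. So the transcript was present in SMGO, in whole bodies, while its ampulla libraries listed it at 0. The difference of the differences, ampullae minus whole bodies, was -11.34 ± 0.997 on the log2 scale (SE; limma interaction, adjusted p = 3.77e-05). It was the single call among 93 transcripts tested (1.08%), with 16 at an unadjusted p under 0.05. Without SMH whole-body replicate 3 there were 17 calls (18.3%), 6 higher (6.45%) and 11 lower (11.8%), FF4, FF9, FF29, FF45, FcoR2, FcoR22_30 and FcoR23 of the 11 transcripts above among them. The 11 were picked for being at 0 in the SMH whole-body libraries that remain, so the calls among them follow in part from that choice. Without the averaged SMGO technical unit there were 7 calls.

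FcoR44 had opposite signs in the tissues and did not pass that test. SMGO ampullae were 19.0-fold higher, whereas whole bodies had 341, 1769 and 1944 in SMGO and 4093, 2185 and 461 in SMH. The difference of differences was 4.96 ± 1.21 (SE; limma adjusted p = 0.0672), and it passed without SMH whole-body replicate 3, at a size of 5.86, with a pseudocount of 100, and with the technical pair averaged on the scale of the values. FcoR40 likewise stood at 206 to 1911 in SMGO ampullae but at 9.93, 0 and 11.1 in SMGO whole bodies, against 0, 0 and 8.91 in SMH whole bodies (difference of differences 7.48 ± 1.84, SE; limma adjusted p = 0.0672). It too passed without SMH whole-body replicate 3, at a size of 6.38, and with a pseudocount of 10 or 100 or the technical pair averaged on the scale of the values. FF19 and FcoR47, at 0 in all SMGO libraries of both tissues, had 258 and 2977 and 469.8 and 247 in SMH whole-body replicates 2 and 3, and 0 in replicate 1.

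Ampullae of SB825-FX, SB825-FEA and SB825-FDA, 9 libraries in all, show whether a transcript that separates SMGO from SMH occurs elsewhere. FF9, FF29, FF7 and FcoR22_30 were at 0 in all 9, so among ampullae FF9 occurred in SMH alone. FF14 had values in 1 of 3 SB825-FX libraries, at 11510, and in all 3 of SB825-FEA, between 10273 and 14492, and of SB825-FDA, between 3989 and 8619. FcoR64 likewise had values in 1 of 3 SB825-FX libraries and in all 3 of each other line, with a highest value of 665. FF19 had values in all libraries of the 3 lines, between 3377 and 6591, as did FF4, between 17984 and 30364. The same held for FF44 (9389 to 15795), FF15 (7595 to 10345), FF16 (1988 to 7866) and FcoR46 (3721 to 7228). In each of these, every SB825 ampulla library lay above every SMGO ampulla library. FcoR18 was at 0 in all 9, and FF10 at 0 in 8, so the difference between SMGO and SMH in these is one of level between the 2 colonies that carry them. FcoR69 had values in all 9, between 891 and 3650.5, so of the ampullae analysed here those of SMGO alone listed it at 0.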

How the data were processed

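Per the labels' protocols, poly-A libraries were sequenced from both ends; the protocols name 2 RNA kits and 2 sequencing centres but assign no library to them. The tools were Trim Galore, kallisto and RSEM, per the submitters' processing notes; versions and the reference build are not given in the sources used here. The authors' deposited signal values carry TMM in their name and are read here as TMM-scaled TPM, an inference from that name and the library sums. Values are shares of the listed transcripts, which limits each of them, and depth per library is unknown. The table has 158 columns of values; 81 that no label describes were not used.

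The pair of SMGO ampulla libraries that the labels call technical was averaged into 1 unit, as log2 values for tests and as deposited values for printed means and totals. Differences are of log2(value + 1) between 3 SMGO and 3 SMH units, tested with limma 3.58.1 (R 4.3.3; trend of variance on mean, two-sided, Benjamini-Hochberg adjustment, threshold 0.05) over transcripts of at least 1 in at least 3 units. The same fit was made for whole bodies, and an interaction over 12 units tested whether the colony difference differed between tissues. List totals were compared by exact permutation. Python 3.11.15 with pandas 2.3.3, numpy 2.4.6, scipy 1.17.1 and matplotlib 3.10.9 served for the rest, and the limma step was tested on simulated data. The alternatives tried were other pseudocounts, filters, scalings and variance models, other uses of the technical pair, a replicate block and leaving out each unit.

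Named transcripts are those held by 1 colony alone, the 12 per direction with the largest difference among those past the threshold, the 5 FF and 5 FcoR with the highest mean, the Fuhc products, calls of the interaction and calls lost or gained under an alternative; any other transcript was named after its values were seen. The members, lists and rules were chosen with earlier results of these data known. No sequence is shown, because the reference tables used here match none of the transcript names.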

Additional observations from a re-analysis of the deposited data

Results flagged for a closer look

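FcoR69 met the criterion of a colony difference that differs between tissues. It was listed at 0 in all 4 SMGO ampulla libraries and present in all 3 SMH ampulla libraries, while both colonies had it in every whole-body library. The difference of the differences was -11.34 on the log2 scale, tested by a limma interaction over 12 units. The value at 0 in SMGO ampullae is the same in the technical pair and in replicates 2 and 3, which count as 3 units. These zeros are part of what met the criterion, so their agreement adds no support.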

How the results depend on the processing

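In ampullae, 20 of the 34 calls (10 FF and 10 FcoR) held under all 18 alternatives and none of the 34 changed direction. The number of calls was 24 to 33 with 1 unit left out and 29 to 36 otherwise. Scaling the libraries to the same sum moved the median log2 difference of all tested transcripts to -0.09, against 0.04, and left 11 calls higher and 20 lower, without FF3, FcoR1 and FcoR70. The fit of all 5 ampulla lines and colonies made 29 calls, without FF3, FF10, FcoR9, FcoR10, FcoR18, FcoR21, FcoR41 and FcoR70.

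Whole-body calls ranged from 8 to 17 with 1 unit left out, and calls of a different colony difference by tissue from 1 to 17, both highest without SMH whole-body replicate 3. By tissue there were 2 with a pseudocount of 10, 4 with a pseudocount of 100, and 5 with the technical pair averaged on the scale of the values, a setting chosen after seeing the data. FcoR69 passed in all of them.

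The difference between colonies in the total of a list changed sign under some settings. On the log2 scale, the difference in the FF total was -0.032 with libraries scaled to the same sum. That in the FcoR total was -0.091 with libraries scaled to the same sum, -0.0017 with the first technical library alone and -0.0095 without FcoR72. With 1 unit left out it ran from -0.0060 (without SMGO replicate 2) to 0.091. That in the signalling total was -0.00048 with libraries scaled to the same sum. A mean of log2(value + 1) over the transcripts of a list is another measure than its total. By that mean the difference was -1.07 in FF, -0.24 in FcoR and -0.35 in Fuhc, against positive differences in the totals. The cause of these turns was not tested.

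Units with the same replicate number did not deviate together: correlations of deviations were -0.084, 0.1 and -0.094 in ampullae and -0.18, 0.26 and -0.19 in whole bodies, so the numbers were not taken as pairs. With a replicate block there were 32 ampulla calls (FF10, FcoR9 and FcoR60 lost, NFAT gained), 9 whole-body calls and 1 by tissue. Depth is unknown, and 3 units a colony limit what can be detected.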
